A study of Homo sapiens with 8 samples.

Results

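The list of PML::RARA peaks in induced U937-PR9 cells held stretches of the genome in which several peaks without a promoter label lay close together. Such a peak can still lie near an annotated start site, as 172 of the cluster peaks did. A cluster was defined as a chain of at least 4 peaks without a gene symbol in which each peak began no more than 12.5 kb after the end of the previous one. The rule used the position of the peaks and the absence of a gene symbol, and the signal did not enter it. Each peak had, however, first been called from its signal, so that the neighbours in the list are not independent of signal. Of the 15412 peaks, 8243 carried no gene symbol and are called unlabelled, and 1078 of these formed 223 clusters. The cluster peaks made up 13.1% of the unlabelled peaks (Wilson 95% interval 12.4% to 13.8%) and 6.99% of all peaks. The other 7165 unlabelled peaks, of which 4391 were alone and 2774 stood in runs of 2 or 3, serve as the comparison, together with the 7169 labelled peaks. A label is the symbol that a gene received in the deposited list where the apex of the peak overlapped its promoter.

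U937-PR9 is a human monocytic leukaemia cell line that carries a PML::RARA transgene under a zinc-inducible promoter. Cells were treated for 5 h with 100 μM ZnSO4 (induced) or with water (uninduced). In the Cut&Run experiments an antibody against PML::RARA or against RARA guided a nuclease to the bound DNA, with 2 replicates of each antibody in each condition and so 8 libraries in 4 groups. All values below come from the list made with the PML::RARA antibody after induction, the peaks of which were reproducible across 2 libraries at an irreproducible discovery rate below 0.05. The uninduced cells and the anti-RARA antibody were not analysed here, so binding that depends on the fusion protein, on zinc itself or on the antibody cannot be told apart. The list gives 1 value per peak and none per replicate, which leaves no spread between replicates, and the sequencing depth is unknown. For this reason the comparisons are descriptions without a test, and the intervals cover the counting of peaks only. Peaks of the same cluster share a neighbourhood and are not independent of each other.

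PML::RARA arises from the translocation of acute promyelocytic leukaemia. It joins the PML protein to the retinoic acid receptor alpha, a nuclear receptor that binds DNA together with RXR and recruits corepressors in the absence of its ligand. Myeloid transcription factors such as PU.1 of the ETS family, RUNX1 and the C/EBP proteins bind enhancers, which are regulatory elements at a distance from the promoters they act on. Enhancers often lie in groups of neighbouring elements, and dense groups of this kind are known from the surroundings of genes that define a cell type.

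The sequences printed here show the motif match nearest to the apex of the highest peak of a cluster, wherever that peak stood in it. The set below holds the 8 clusters with the largest summed height among the named clusters for which such a stretch could be printed. Each sequence is the plus strand of hg19 around the searched motif nearest to the apex of the highest peak of the cluster, and the capitals mark the motif match. The ETS core is written GGAAGT on the strand that carries it. Where the match lay on the minus strand, the capitals show the reverse complement of the motif, as in the TLE3, CD93, RNF24, LRRFIP1 and LNCATV sequences.
Between TLE3 and UACA, chr15:70785328-70785373, ETS core: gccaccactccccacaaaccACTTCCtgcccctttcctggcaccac
Between CD93 and NXT1, chr20:23106431-23106477, AP-1: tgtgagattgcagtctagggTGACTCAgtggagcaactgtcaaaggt
At ZNRF1, chr16:75109339-75109384, RUNX: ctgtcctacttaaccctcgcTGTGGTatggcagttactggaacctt
Beside RNF24, chr20:4063603-4063648, retinoid receptor motif: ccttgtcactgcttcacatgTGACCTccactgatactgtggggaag
Beside CEBPA, chr19:33751842-33751887, ETS core: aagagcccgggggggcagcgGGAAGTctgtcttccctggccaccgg
Between SERTAD2 and SLC1A4, chr2:65058632-65058678, AP-1: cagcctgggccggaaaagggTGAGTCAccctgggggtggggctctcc
Within LRRFIP1, chr2:238583506-238583551, retinoid receptor motif: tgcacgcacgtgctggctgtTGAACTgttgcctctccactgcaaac
At LNCATV, chr1:235116908-235116955, C/EBP: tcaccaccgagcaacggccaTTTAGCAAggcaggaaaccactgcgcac
A match is a description of these letters. How often each motif occurs in all cluster peaks, and in sequence next to them, is given further on.

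Most clusters were small. There were 131 clusters of 4 peaks, 42 of 5, 26 of 6, 12 of 7, 7 of 8, 2 of 9 and 3 of 10. They spanned 3454 to 57543 bp with a median of 18339 bp, and their peaks covered a median of 20.5% of the span. The space between neighbouring cluster peaks had a median of 3277 bp (quartiles 1211 and 7013.5 bp, 855 spaces), so that a typical cluster was a row of separate peaks with several kilobases between them. In 193 cases (22.6%), spread over 131 clusters, the space was under 1 kb, and the list does not show whether such neighbours are separate bound regions. Joining neighbours under 1 kb apart before chaining left 145 clusters.

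The summed height of a cluster, the height of a peak being the largest signal within it, had a median of 132 and lay between 75 and 472. The summed total signal, which adds the signal over every base of each peak, had a median of 38602 and lay between 9278 and 236470. A cluster between TLE3 and UACA had the largest value on both measures, and the 10 clusters with the largest total signal held 12.6% of the total signal of all 223.

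**Figure D1:**
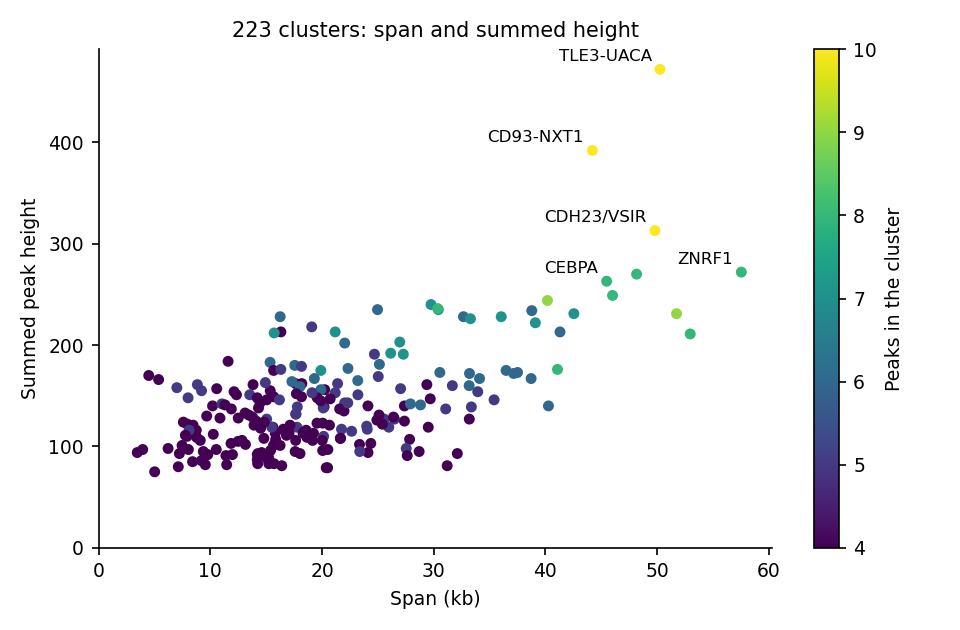
Each point is 1 of the 223 clusters, with its span in kb on the x axis, the sum of the heights of its peaks on the y axis and the number of its peaks as colour. The 3 clusters of 10 peaks, between TLE3 and UACA (472), between CD93 and NXT1 (392) and within CDH23 (313), stand above all others, and the ZNRF1 cluster has the longest span (57543 bp) with a summed height of 272.

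Peaks in clusters were slightly higher and wider than other unlabelled peaks. Their median height was 27 (quartiles 20 and 36) against 23 (19 and 31), a mean difference of 0.16 on the log2 scale or 1.12-fold, and the quartiles of both groups overlapped widely. Of the 22 chromosomes with clusters, 21 had the difference in this direction, the exception being chromosome 12 with a difference of -0.0022. The median width was 725.5 bp against 622 bp, a mean difference of 0.19 on the log2 scale or 1.14-fold, positive on 20 of 22 chromosomes. Wider peaks are also higher, and among peaks of like width, in 10 width classes, the height difference was 0.11 and positive in 10 of 10 classes. A wide peak also comes nearer to its neighbour's edge. With the chains built from apex to apex, an alternative chosen after seeing the data, the differences were 0.16 in height and 0.18 in width.

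The difference was graded with the number of neighbours. Median height was 23 for lone unlabelled peaks, 24 in runs of 2, 25 in runs of 3, 26 in runs of 4 and of 5, 27 in runs of 6 to 7 and 29 in runs of 8 to 10. Median width went from 601 bp for lone peaks to 699.5 bp in runs of 4 and 798 bp in runs of 6 to 7, and was 751 bp in runs of 8 to 10. The rise thus began below the number of peaks that the rule asked for, and a run of 3 did not stand apart from a run of 4.

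**Figure D2:**
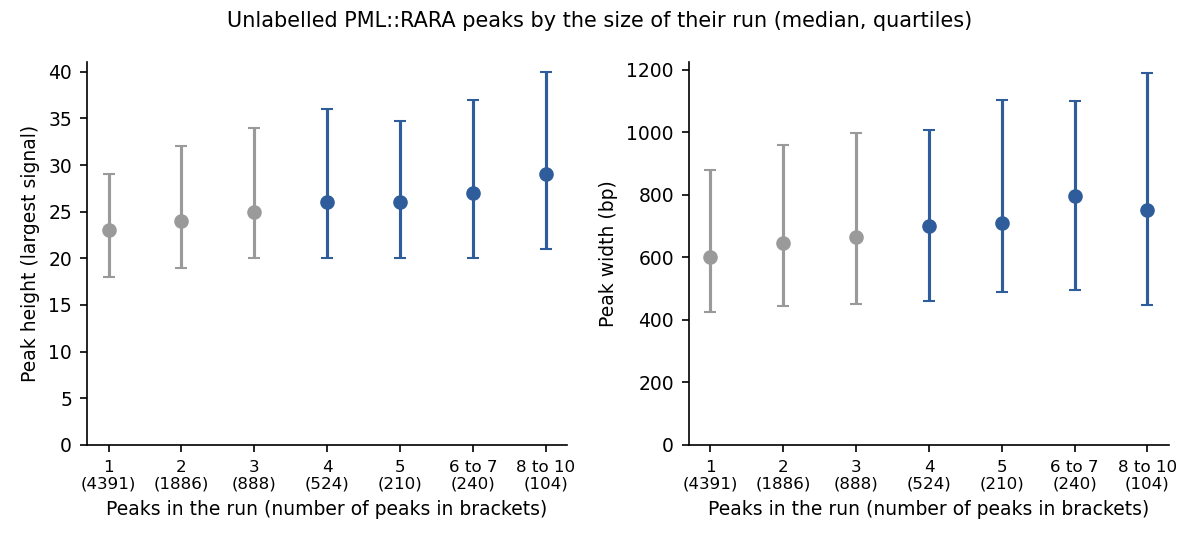
The x axis gives the number of unlabelled peaks in a run with the number of peaks in brackets, and the y axes give peak height (left) and peak width in bp (right). Points are medians and bars the quartiles, grey for peaks outside and blue for peaks inside clusters, and the median height goes from 23 for lone peaks to 29 in runs of 8 to 10 while the quartile ranges overlap throughout.

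Tall peaks were more frequent in clusters than among all unlabelled peaks. A height of at least 41, the 90th percentile of the unlabelled peaks, was reached by 196 cluster peaks (18.2%), against 11.0% of all unlabelled peaks. At least 1 such peak was held by 129 of the 223 clusters (57.8%). That share depends on the number of peaks in a cluster, and it cannot be set beside the shares of single peaks.

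Within a cluster the heights were uneven. The highest peak had a median height of 43 and the lowest of 17, and their ratio had a median of 2.29 and reached 5.19. Only 3.23% of the variance of log2 height lay among clusters, so that 2 peaks of the same cluster were nearly as different in height as 2 cluster peaks taken from anywhere. The highest peak held a median of 38.6% of the total signal of its cluster. Peaks inside a cluster had a median height of 27 (632 peaks, quartiles 21 and 37) and those at its ends 25 (446 peaks, quartiles 19 and 35). The highest peak was the first or the last in 82 clusters (36.8%), whereas the end positions averaged 43.6% of the positions in a cluster.

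The largest cluster lay on chromosome 15 between TLE3, a corepressor of the Groucho family, and UACA, at chr15:70755161-70805419. Its 10 peaks had heights of 62, 46, 18, 58, 60, 72, 17, 57, 52 and 30 from left to right. Of these, 7 reached 41 and 2 were below 20, so that low peaks stood directly beside the highest ones. No protein-coding gene overlapped it, 9 of its peaks were intergenic and 1 was in an intron of the long noncoding RNA gene LINC02205, and the nearest labelled peaks were 360720 bp to the left (TLE3) and 249433 bp to the right (UACA). An ETS core was found in 3 of the 10 peaks, an AP-1 motif in 4 and a RUNX motif in 5.
A second cluster, at chr15:70533947-70564303, held 8 intergenic peaks with a summed height of 236 and was 139506 bp from the TLE3 promoter peak. With clusters of 4 peaks at chr15:70010939-70018881 and chr15:70873390-70889091, the megabase from 70 to 71 Mb held 4 clusters and 26 cluster peaks. Without these 4 clusters the difference between cluster peaks and other unlabelled peaks was 0.16 in log2 height and 0.18 in log2 width.

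The cluster on chromosome 20 at chr20:23099990-23144190 began 31623 bp from the labelled peak of CD93, a surface glycoprotein of myeloid and endothelial cells. Its 10 peaks had heights of 18, 57, 31, 51, 42, 32, 33, 55, 33 and 40, and their apexes lay 33.2 to 75.5 kb upstream of the 5′ end of CD93 (ENSG00000125810, minus strand). Here 4 peaks reached 41, and the other 6 were between 18 and 40. The ETS core was present in 7 of the 10 peaks, AP-1 and C/EBP motifs in 4 each, and the highest peak lay in an exon of a noncoding RNA gene.

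The third cluster with 10 peaks lay inside CDH23, a large cadherin gene, on chromosome 10 at chr10:73486937-73536745. That stretch also contains VSIR (ENSG00000107738, minus strand), which encodes the immune checkpoint protein VISTA of myeloid cells, and its labelled promoter peak stood among the cluster peaks. The heights were 39, 34, 23, 28, 60, 26, 36, 29, 16 and 22. A single peak of 60, 24.5 kb downstream of the 5′ end of VSIR, stood above the rest and held 43.0% of the cluster's total signal. Of the 10 peaks, 7 were intronic, and ETS and C/EBP motifs were found in 5 each, RUNX motifs in 4 and an AP-1 motif in 0.

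**Figure D3:**
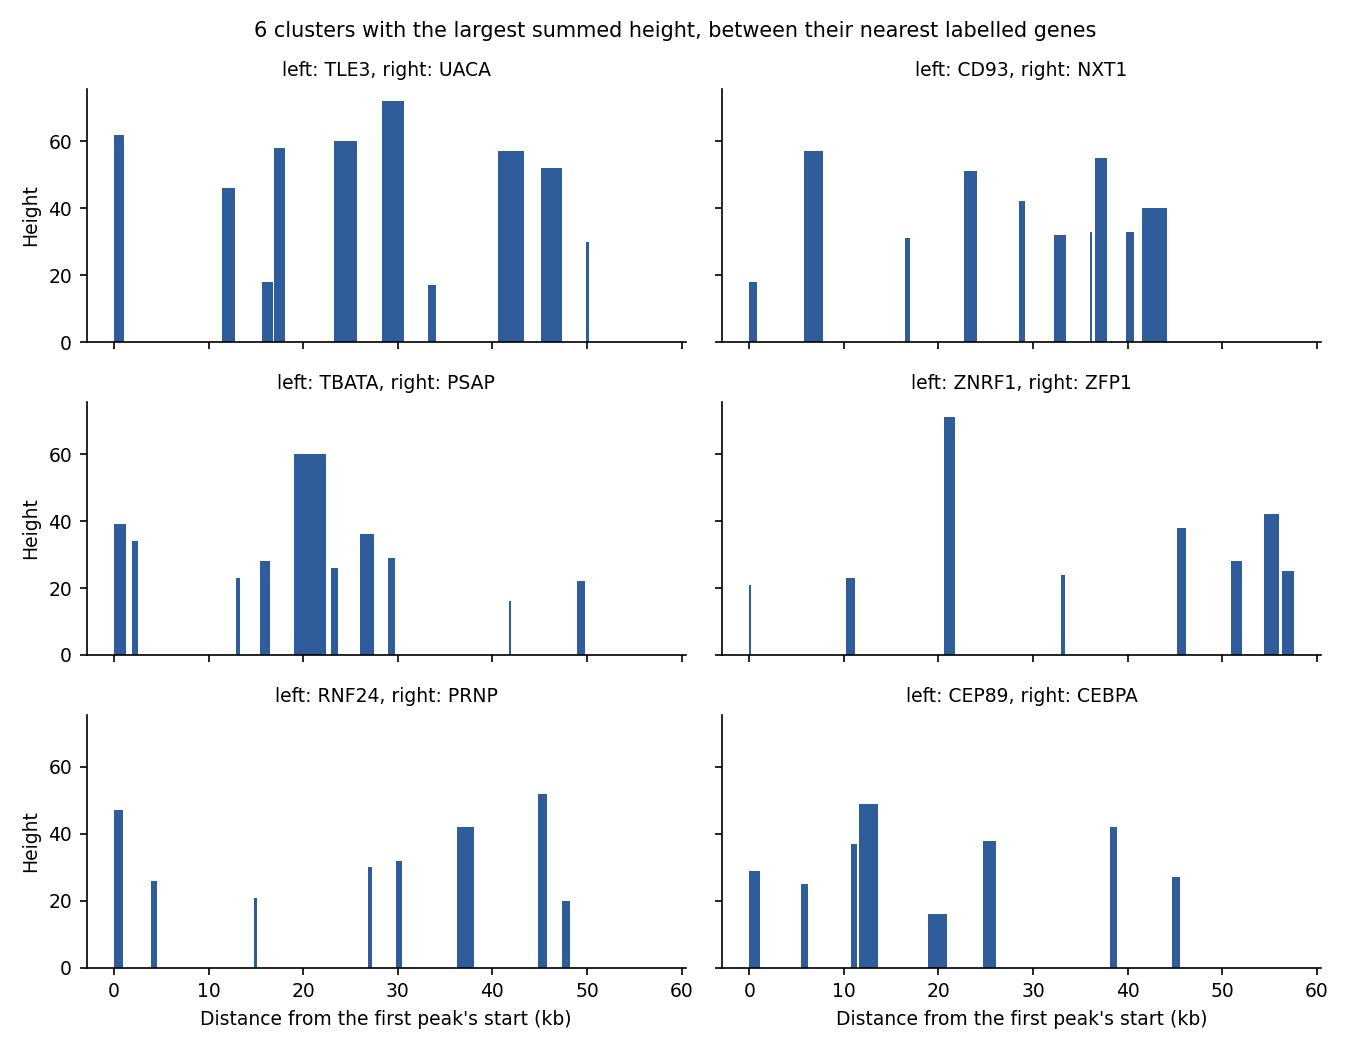
Each panel shows 1 of the 6 clusters with the largest summed height, with the distance from the start of the first peak in kb on the x axis and peak height on the y axis. Bars are the unlabelled peaks at their true width, labelled peaks are not drawn, and the titles name the nearest labelled genes to the left and right of the cluster. The CDH23 cluster is the panel between TBATA and PSAP. High and low peaks stand side by side in each panel, as in the TLE3 and UACA panel with heights from 17 to 72.

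CEBPA, the transcription factor required for the granulocytic lineage, had a cluster downstream of it at chr19:33739524-33785008. A myeloid enhancer downstream of CEBPA is known. The 8 peaks had heights of 29, 25, 37, 49, 16, 38, 42 and 27, were all intergenic, and ended 7900 bp from the labelled CEBPA peak. Measured from the 5′ end of CEBPA (ENSG00000245848, minus strand, 33790840 to 33793440), the apexes lay 8.80 to 53.3 kb downstream, the highest at 41.6 kb. That peak (33751156 to 33753119) holds the ETS core printed above, 6 bp from its apex.

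Other clusters of the largest in size, height, signal or span lay within or beside genes of diverse function. The ZNRF1 cluster, of which 98.5% of the span overlapped this ubiquitin ligase gene, at chr16:75088211-75145753, had heights of 21, 23, 71, 24, 38, 28, 42 and 25, with the peak of 71 well above its neighbours. On chromosome 20, 8 peaks upstream of RNF24 (chr20:4018416-4066579) had heights of 47, 26, 21, 30, 32, 42, 52 and 20, and 7 of them were intergenic. PPCDC, an enzyme gene of coenzyme A synthesis, contained 5 peaks of 49, 21, 16, 83 and 49 (chr15:75321275-75340352). The peak of 83 was the highest of all cluster peaks and lay 141 bp from an annotated start site, 19.5 kb downstream of the gene's 5′ end.
Upstream of ID2, an inhibitor of DNA binding by helix-loop-helix factors, 6 peaks lay over the noncoding gene LINC01814 (chr2:8655163-8687825) at 134 to 163 kb from ID2. Their heights were 57, 20, 19, 43, 27 and 62. The peak of 62 was 4261 bp wide, the greatest width among the cluster peaks, and held 53.7% of the cluster's total signal. Its apex lay 77 bp from an annotated start site. Around SH3BGRL3, 6 peaks (chr1:26601087-26617338) had heights of 35, 35, 20, 47, 37 and 54. The peaks of 35 lay within CEP85 and the others within UBXN11, on either side of SH3BGRL3. The peaks covered 47.7% of the span, which makes it a denser stretch than the typical cluster.
The remaining clusters chosen for size lay within LRRFIP1 (9 peaks), at ANXA2R (9), NRROS (8), between SERTAD2 and SLC1A4 (8), at LNCATV (7), at GASAL1 between KLF10 and AZIN1 (7), beside DNAJB12 (6) and beside PLEKHO2 (6). Their summed heights ranged from 192 for the GASAL1 cluster to 249 for the cluster between SERTAD2 and SLC1A4. NRROS, a gene that limits reactive oxygen species in myeloid cells, had the least covered span, 8.11%, the lowest of the 223 clusters.

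The lists of genes relevant to this cell type were searched for clusters that overlapped a listed gene or had its labelled peak as the nearest on either side. Among 28 myeloid transcription factors 6 were found (CEBPA, CEBPB, FLI1, ETS1, ETS2 and IKZF1), which is 21.4% against 2.30% of the 20090 protein-coding genes (462 genes). A gene could be a labelled neighbour only if it carried a labelled peak. Of the 16 myeloid factors with such a peak 37.5% were found, and of the 6025 protein-coding genes with such a peak 6.32%. The neighbour could be distant, as ETS1 was at 2040401 bp. Counting instead genes with a 5′ end within 100 kb of a cluster, a measure added after seeing the data, 4 of 28 myeloid factors (CEBPA, CEBPB, FLI1 and IKZF1, 14.3%) and 695 of 20090 protein-coding genes (3.46%) were found. Of the 6025 protein-coding genes with a labelled peak, 348 (5.78%) were found by this measure. The list was chosen with results of these data known, and its share has no test.

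FLI1, an ETS factor of blood and endothelial cells, held 5 peaks of 42, 31, 16, 21 and 41 within its introns (chr11:128583456-128596984), 27.2 to 39.9 kb downstream of its 5′ end. Both end peaks were the high ones. Upstream of IKZF1, which encodes the lymphoid and myeloid factor Ikaros, the 4 peaks (chr7:50246014-50257891) had heights of 46, 21, 47 and 23, at 86.0 to 97.3 kb from its 5′ end.
Downstream of CEBPB, a C/EBP factor of macrophages and granulocytes, there were a cluster of 5 peaks with heights from 20 to 30 at 69.9 to 93.3 kb (chr20:48877074-48901124) and a cluster of 4 with heights from 16 to 33 at 143 to 159 kb (chr20:48950411-48966189). All 9 CEBPB peaks were below 41. Clusters of 4 and 7 peaks (chr21:40330860-40358239 and chr21:40372271-40393448), between 154 and 216 kb downstream of the 5′ end of the ETS factor ETS2, reached heights of 48 and 44.

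Among 14 genes of the retinoid pathway, 2 were found: RARA itself, and DHRS3, a retinaldehyde reductase whose labelled peak was 445539 bp away. This is 14.3% against 2.30% of all protein-coding genes, and by the 100 kb measure only RARA was found (7.14% against 3.46%). The 7.14% is a single gene, near the 5.78% of protein-coding genes with a labelled peak. The RARA cluster (chr17:38467486-38494764) lay entirely within the gene (ENSG00000131759, plus strand). Its 7 unlabelled peaks had heights of 32, 19, 20, 53, 27, 18 and 22, with 3 labelled RARA peaks among them. Only the fourth, 13.5 kb downstream of the 5′ end, reached 41, and it held 53.6% of the cluster's total signal. The transgene carries RARA sequence, and the number of reads from it that align within RARA was not tested. RARB, RARG and the RXR genes were not found.

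In the list of corepressor genes, TLE3 was found by the labelled neighbour, through the clusters on chromosome 15 described above. By the 100 kb measure SKI and TLE5 were found and TLE3 was not, so that this list depended on the measure used. These are 2 of 16 genes (12.5%), against 3.46% of all protein-coding genes and 5.78% of those with a labelled peak.
Of 32 genes of myeloid surface proteins and signalling, 4 were found (ITGB2, PRKCD, VAV1 and TGFBR2, 12.5%), against 2.30% of all protein-coding genes, and among those with a labelled peak the shares were 18.2% and 6.32%. TGFBR2 was found through a labelled peak at 618352 bp, and by the 100 kb measure 3 of 32 were found (9.38% against 3.46%), without TGFBR2. Of protein-coding genes with a labelled peak, 5.78% were found by the 100 kb measure. ITGB2, the beta chain of the leukocyte integrins, held 6 peaks of 39, 17, 16, 22, 41 and 24 (chr21:46333624-46351654), of which the highest lay 4.29 kb downstream of the 5′ end. PRKCD, a protein kinase C gene, held 4 peaks of 18, 31, 44 and 31 (chr3:53192162-53206995). In both genes a labelled promoter peak stood among the unlabelled ones.
Of 10 erythroid or lymphoid transcription factors 0 were found, but only 1 of them carried a labelled peak. Of 13 genes of the zinc response, which include the metallothioneins, 10 carried a labelled peak and 0 were found by either measure. With 6.32% of all protein-coding genes with a labelled peak found, a count of 0 in lists of this size is no contrast with other genes.

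Relative to genes, cluster peaks had nearly the same intron share as other unlabelled peaks. They lay more often between genes and less often near a start site. Introns held 47.8% of the cluster peaks (Wilson 95% interval 44.8% to 50.8%) and 46.9% of the others, and sequence between genes held 31.4% (28.7% to 34.3%) against 27.5% (26.5% to 28.6%). Within 1 kb of an annotated start site were 172 cluster peaks (16.0%) against 20.7% of the others. These start sites are those of GENCODE, which lists more transcripts than the annotation from which the authors took the gene symbols, so that a peak near such a start site need not carry a symbol. The rule excluded labelled peaks from the clusters, and 6811 of the 8463 peaks within 1 kb of a start site were labelled, so that this share is partly set by the rule. With protein-coding genes only, the start-site share was 6.49% in cluster peaks and 12.7% in the others, under the same limit. The intergenic share was then 49.9% against 43.7%.
Within the clusters, the intergenic share was uneven by size. It was 32.1% in runs of 4, 21.4% in runs of 5, 32.9% in runs of 6 to 7 and 45.2% in runs of 8 to 10, the last group being 12 clusters with 104 peaks.

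**Figure D4:**
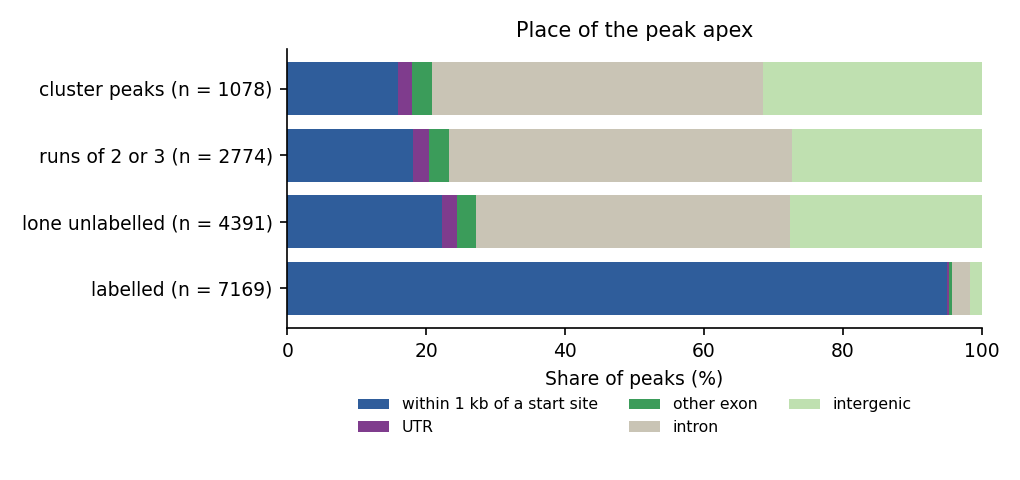
Bars give the share in percent of peaks whose apex lay within 1 kb of a start site, in a UTR, in another exon, in an intron or between genes, for cluster peaks, unlabelled peaks in runs of 2 or 3, lone unlabelled peaks and labelled peaks. Cluster peaks have the largest intergenic share (31.4%) and 16.0% of them lie near a start site, against 6811 of the 7169 labelled peaks.

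Of the 223 clusters, 142 overlapped a protein-coding gene and 81 did not, and 81 lay wholly within 1 such gene. All peaks were intronic in 53 clusters and intergenic in 34. At least 1 peak within 1 kb of a start site was present in 103 clusters. A labelled peak stood between the peaks of 43 clusters (19.3%, 56 labelled peaks), and if a labelled peak was taken to end a chain, 200 clusters with 942 peaks were left. The other 180 clusters were a median of 40651 bp from the nearest labelled peak. The distance exceeded 100 kb for 44 clusters and reached 538449 bp, so that clusters occurred both around labelled peaks and far from any. A cluster far from labelled peaks can still hold unlabelled peaks near a start site.

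Clusters were found on 22 of 23 chromosomes. Chromosome 1 held 26, and relative to length they were most frequent on chromosomes 19 and 17, with 27.1 and 23.4 per 100 Mb, and least frequent, among chromosomes with any, on chromosome 4 with 1.57. As a share of the unlabelled peaks, however, cluster peaks made up 15.8% on chromosome 19 and 15.2% on chromosome 17. These shares were near the 13.1% of all chromosomes and the 15.4% of chromosome 1. Chromosome 21 had the largest share of its unlabelled peaks in clusters (22.4%, 34 of 152). Chromosome 9 had 268 unlabelled peaks and 0 clusters, although 14 runs of 3 peaks were found there. With a gap of up to 20000 bp it had 6 clusters.

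Each motif was looked for on both strands, from 200 bp before to 200 bp after the apex, and as a control in windows of the same size centred 2 kb upstream. The control windows were not cleared of other peaks, and some lay within a neighbouring cluster peak. The ETS core was GGAAGT, and the PU.1-type motif GAGGAAGT contains it. For RUNX factors, which bind DNA through the runt domain, the string was TGTGGT. The AP-1 string, bound by dimers of the FOS and JUN families, was TGAGTCA. For C/EBP factors it was TTGCNNAA and for IRF factors GAAANNGAA. GATA factors, of which GATA1 is erythroid, were represented by AGATAA, and the SP1 string, typical of GC-rich promoters, was GGGCGG. The retinoid receptor motif was AGGTCA in its most common form, with AGTTCA as an accepted variant, GGGTCA as another and GGTTCA as the last. The ETS core was found in 47.7% of cluster peaks (Wilson 95% interval 44.7% to 50.7%) and in 19.9% of their control windows. The PU.1-type motif was found in 12.3% against 2.41%, AP-1 in 20.7% against 7.14%, RUNX in 39.0% against 29.2% and C/EBP in 22.3% against 16.0%. These motifs of myeloid and activation-dependent factors were thus more frequent at the peaks than in the control windows. So was the SP1 string, at 21.8% against 14.5%, and the excess was not limited to motifs of such factors. The single retinoid receptor motif was found in 62.1% of cluster peaks and 63.2% of the control windows, so that its presence in 2 of the printed sequences is what the control windows also show. GATA had 12.3% against 15.4%, and IRF 12.3% against 10.9%.
Direct repeats of the receptor motif, the form bound by retinoid receptors, were rare. With a spacer of 1 base they were found in 2 cluster peaks (0.186%), and with spacers of 2 and of 5 bases in 5 each (0.464%). The control windows held 1, 30 and 2.

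Cluster peaks and the other unlabelled peaks had nearly the same motif shares. The other unlabelled peaks had the ETS core in 47.1%, the PU.1-type motif in 11.7%, RUNX in 40.5%, AP-1 in 22.1%, C/EBP in 22.6% and the receptor motif in 63.9%. For SP1 the shares were 21.8% in cluster peaks and 25.3% in the others. Among peaks more than 1 kb from a start site, the SP1 shares were 20.4% and 19.5%, in the other direction. There RUNX was lower in cluster peaks, 39.2% (36.06% to 42.40%) against 43.7% (42.41% to 44.99%). AP-1 was at 21.2% against 23.8% and the ETS core at 48.1% against 48.3%. The ETS share of cluster peaks was above that of the others on 13 of 22 chromosomes. Labelled peaks differed from both, with SP1 in 76.2%, RUNX in 15.4%, AP-1 in 5.69% and the ETS core in 36.7%.
Inside clusters, the highest peak had an ETS core in 54.7% of cases (48.2% to 61.1%, 223 peaks) and the other cluster peaks in 45.8% (42.5% to 49.2%, 855 peaks). The shares were also larger in the highest peak for RUNX (43.9% and 37.7%), SP1 (25.6% and 20.8%) and the PU.1-type motif (14.8% and 11.7%). AP-1 was at 20.6% and 20.7%, C/EBP at 22.4% and 22.2%, and IRF at 11.7% and 12.5%. The ETS core was present in every peak of 11 clusters and in none of 14. These counts were not set against what the overall share of 47.7% gives in clusters of these sizes. Median GC content of the windows was 53.6% in cluster peaks and 52.6% in the others, and 2 kb upstream it was 50.1% and 47.4%.

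**Figure D5:**
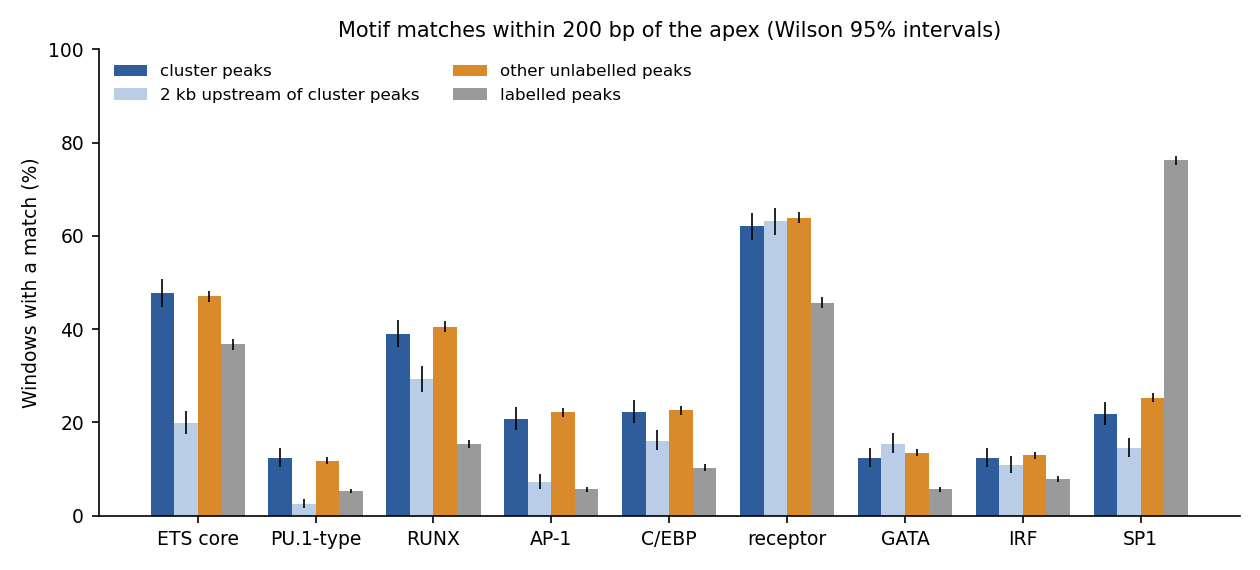
Bars give the share in percent of windows of 200 bp on either side of the apex with a match to each motif, in cluster peaks (n = 1078), in windows 2 kb upstream of them, in other unlabelled peaks (n = 7165) and in labelled peaks (n = 7169), with Wilson 95% intervals. The bar group named receptor is the single retinoid receptor motif. The ETS core is at 47.7% in cluster peaks and 19.9% in the windows 2 kb upstream, cluster peaks and other unlabelled peaks are close for every motif shown, and SP1 is highest in labelled peaks (76.2%).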

How the data were processed

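Cut&Run of U937-PR9 cells gave the deposited peak list. The authors used Trimmomatic for read trimming, Bowtie2 for alignment (hg19) and SAMtools, called peaks with SEACR and kept those reproducible across 2 replicates. For each peak the authors deposited a total signal and a largest signal (here the height) and its width in bp. What these columns hold was taken from their values, and normalization of the signal, or whether it comes from 1 replicate or pooled reads, is not given in the sources used here. Depth per library is unknown.

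Here, unlabelled peaks were chained by position and compared with all other unlabelled peaks, without tests. The apex was the midpoint of the interval of largest signal, or its start in 34 peaks (1 of them in a cluster) that lack the end. Places came from GENCODE release 44 mapped to GRCh37, and sequences from GRCh37. Shares have Wilson 95% intervals. Clusters named were the 10 with most peaks, signal or height, the 5 with the longest span (ties by signal), and those at genes of 6 lists. Part of the result for the corepressor list is not reported here. Members and lists were chosen with earlier results of these data known, and printing sequences in order of summed height was chosen after seeing the data. Chaining was tested on simulated positions. Python 3.11.15, numpy 2.4.6, pandas 2.3.3, scipy 1.17.1, pysam 0.24.0 and matplotlib 3.10.9 were used.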

Additional observations from a re-analysis of the deposited data

How the results depend on the processing

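No paired analysis was possible because there is 1 value per peak, and for the same reason no replicate could be left out. The number of clusters, 223, depended on the rule. It was 68 with gaps of at most 5000 bp, 519 with at least 3 peaks, 50 with at least 6 peaks, 145 with neighbours under 1 kb apart joined, 147 without unlabelled peaks within 1 kb of a start site and 46 among peaks at or above the median height. In the same order the cluster peaks numbered 304, 1966, 344, 673, 692 and 213, and 1631 with gaps of at most 20000 bp. Their share of the unlabelled peaks was then 3.69%, 23.9%, 4.17%, 8.70%, 10.5%, 5.65% and 19.8%, and it was 11.4% with chains ended by a labelled peak and 12.3% with gaps measured between apexes, the latter chosen after seeing the data. The height difference kept its sign under every alternative and was 0.088 at or above the median height, 0.11 within width classes and 0.32 for total signal in place of height. The intergenic share was 25% with gaps of at most 5000 bp, 36.6% with at least 6 peaks, 34.6% with neighbours joined, 38.6% without peaks near start sites and 49.9% with protein-coding genes only. By the last of these, the other unlabelled peaks had 43.7%. The ETS share was 36.1% within 100 bp on either side of the apex. The median space between peaks was 1559.5 bp with gaps of at most 5000 bp, and the median distance to a labelled peak was 39290 bp with those gaps and 9493 bp with at least 6 peaks. Causes were not tested beyond what each rule fixes by construction. Without replicate values, differences in height or width of this size could not be set against an error.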
